A study of Mus musculus with 2 samples.

Results

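Mir451a, Mir144 and Mir486 are the miRNA genes best known from red blood cells, and they are described here in the heart of newborn mice. They were taken by name: the Ensembl identifiers of the deposited tables were matched to gene symbols, and all 3 of the 3 genes had a row, out of 1973 miRNA gene rows in all. The series held 1 group, whole hearts of strain B6NCrl at postnatal day 0, sex not collected. Replicate 1 is the heart of pup 2 and replicate 2 the heart of pup 3, born to the same pregnant female. No genotype, treatment or other age was compared, so the questions were how much of each gene the tissue held and how far 2 littermates differed. Whether the hearts were rinsed of blood is not given in the sources used here.

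Red cell precursors switch on Mir144 and Mir451a together from a single primary transcript under the factor GATA1. miR-451a is cut by Argonaute 2 rather than by Dicer, the enzyme that matures most miRNAs. miR-451a also supports red cell survival under oxidative stress. Mir486 lies inside Ank1, the gene of ankyrin 1, which anchors the red cell membrane skeleton. It is also made in striated muscle. Mature red cells have no nucleus but keep these miRNAs, so blood in a tissue carries them with it.

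The sequences are shown for their seeds (bases 2 to 8, in capitals), which pick the target messenger RNAs. These seeds set Mir451a and Mir144 apart from each other and from the other mature sequences searched. The seed of Mir486 was not compared, since no sequence of it was at hand. RefSeq mature sequences on build GRCm38.p6 were found for 2 of the 3 members, Mir451a and Mir144, and for Mir451b, the gene annotated on the opposite strand of Mir451a.
mmu-miR-451a: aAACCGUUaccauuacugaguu
mmu-miR-144-5p: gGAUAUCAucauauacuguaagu
mmu-miR-144-3p: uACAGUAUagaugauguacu
mmu-miR-451b: uGGGAGCAgcaagagaaccgu
mmu-miR-101a-3p: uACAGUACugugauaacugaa

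None of the 1738 mature sequences of the table, other than the member's own, had the same bases 2 to 8 as miR-451a, miR-144-5p or miR-144-3p. Bases 2 to 7 of miR-144-3p were shared with miR-101a-3p, the last sequence shown, which differs from it in base 8 and beyond. Mir144 averaged 160.1 ± 40.2 CPM (SD, n = 2) and Mir101a, the gene of that miRNA, 184 ± 11.8 CPM, a difference smaller than the spread of Mir144 over the hearts. CPM are counts on the sense strand of a gene per 1000000 sense counts on all miRNA genes of that library. The bodies of the 2 miR-144 arms were also distinct: their longest stretch in common with any other of 1004 hairpins was 9 nt for the 5p arm and 10 nt for the 3p arm.

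miR-451a sat in its hairpin unlike the miR-144 arms. The 22 nt of miR-451a lay at bases 17 to 38 of the 72-nt hairpin, and the terminal loop predicted by RNAfold was bases 35 to 38, so the mature sequence ended inside the loop and held all 4 of its bases. In the 66-nt Mir144 hairpin the arms lay at bases 6 to 28 and 43 to 62, on either side of a 6-nt loop, and held 0 of its bases. The predicted folding energy was -43.3 kcal per mol for the Mir451a hairpin and -28.6 kcal per mol for the Mir144 hairpin.

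On mm10, which is GRCm38, Mir144 lies on chromosome 11 at 78073005 to 78073070 and Mir451a at 78073170 to 78073241, both on the plus strand and 99 bases apart. No other gene of GENCODE M21 overlaps either of them apart from Mir451b, which covers exactly the bases of Mir451a on the minus strand. The nearest protein-coding gene is Eral1, a mitochondrial ribosome assembly GTPase gene, on the minus strand 134 bases beyond Mir451a. Mir486 lies on chromosome 8 at 23142555 to 23142682, plus strand, in an intron of Ank1 on the same strand. Mir3107 overlaps 90 of its 128 bases on the minus strand, inside the antisense gene Gm15816. Mir451b and Mir3107 have no row of their own in the deposited tables.

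All 3 genes were found in both hearts, in the middle of the miRNA range. Mir451a was the highest of them. It had 1019 sense counts in replicate 1 and 1431 in replicate 2, or 439 CPM (95% exact Clopper-Pearson interval 412 to 466) and 410.4 CPM (389 to 432). These intervals overlap, and the mean was 424 ± 19.9 CPM (SD, n = 2), a coefficient of variation of 4.70%.

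Mir144 had 438 sense counts in replicate 1 and 459 in replicate 2, or 189 CPM (171 to 207) and 132 CPM (119.9 to 144). Here the counting intervals of the hearts do not overlap. The libraries behind them held 2323450 sense counts in replicate 1 and 3487183 in replicate 2. The mean was 160.1 ± 40.2 CPM with a coefficient of variation of 25.1%, the widest of the 3. Mir486 had 181 and 230 sense counts, or 77.9 CPM (67.0 to 90.1) and 66.0 CPM (57.7 to 75.1), with a mean of 71.9 ± 8.45 CPM and overlapping intervals. Reads that aligned to several places were given to no gene, and no sequence of Mir486 or Mir3107 was at hand to find whether theirs do, so the counts of Mir486 may be too low, and its rank and its ratios to other genes carry the same uncertainty. These intervals reflect counting error alone; the reads carried no molecular identifiers, so several can stem from 1 molecule.

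**Figure D1:**
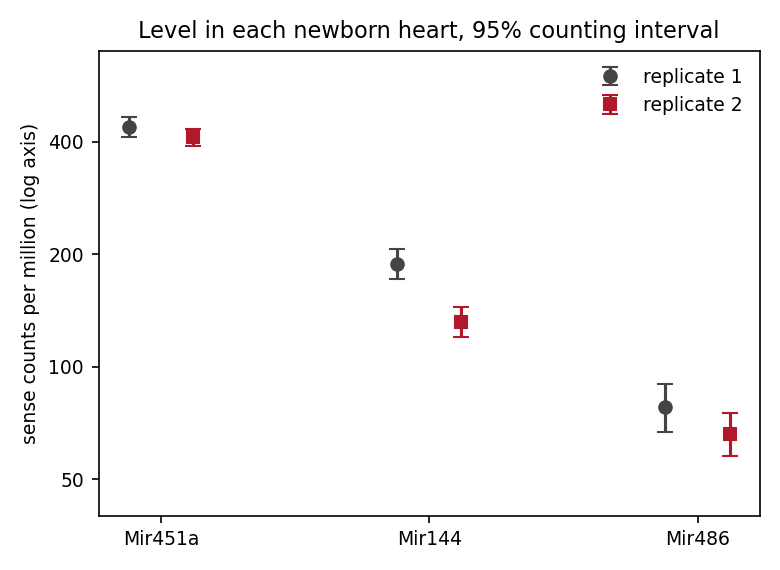
Sense CPM (log axis) of Mir451a, Mir144 and Mir486 in each heart, with bars for the 95% exact Clopper-Pearson counting interval. The bars of the hearts overlap for Mir451a and Mir486 and are apart for Mir144, at 189 CPM in replicate 1 and 132 CPM in replicate 2.

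The members held 0.0656% ± 0.00686 of all sense counts together, 0.0705% in replicate 1 (0.0671 to 0.0740) and 0.0608% in replicate 2 (0.0582 to 0.0634). Mir451a made up 62.2% of the members' counts in replicate 1 and 67.5% in replicate 2, Mir144 26.7% and 21.7%, and Mir486 11.1% and 10.8%. The share of Mir486 differed least between the hearts. In a bulk sample fewer red cells and less miRNA per red cell cannot be told apart.

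By mean level Mir451a ranked 99, Mir144 140 and Mir486 174 of the 1973 genes, of which 327 reached 2 CPM in both hearts. In that set 70.0% of genes lay at or below Mir451a, 57.5% at or below Mir144 and 47.1% at or below Mir486. The closest neighbours of Mir451a were Mir674 (435 ± 2.36 CPM) above and Mir34a, a p53-induced miRNA (404 ± 12.8 CPM), below. The ranges of Mir451a over the hearts overlapped with both, and with Mir337 above, but not with Mir467e (399.7 ± 13.8 CPM), the next below.

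Mir144 stood between Mir155, a miRNA of activated immune cells (161 ± 16.9 CPM), and Mir181a-2 (149 ± 70.0 CPM), and Mir486 between Mir496a (73.0 ± 9.50 CPM) and Mir370 (71.8 ± 9.61 CPM). Among the 4 nearest genes of Mir144 and the 4 nearest of Mir486, 2 above and 2 below each, none had a range apart from the member's own, so these ranks are not fixed by 2 hearts. Among the members themselves the ranges of counted reads were apart. The lowest heart of Mir451a (410.4 CPM) was above the highest of Mir144 (189 CPM), and the lowest of Mir144 (132 CPM) above the highest of Mir486 (77.9 CPM). The place of Mir486 as the lowest is uncertain, since its counts may be too low for the reason given with its level.

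**Figure D2:**
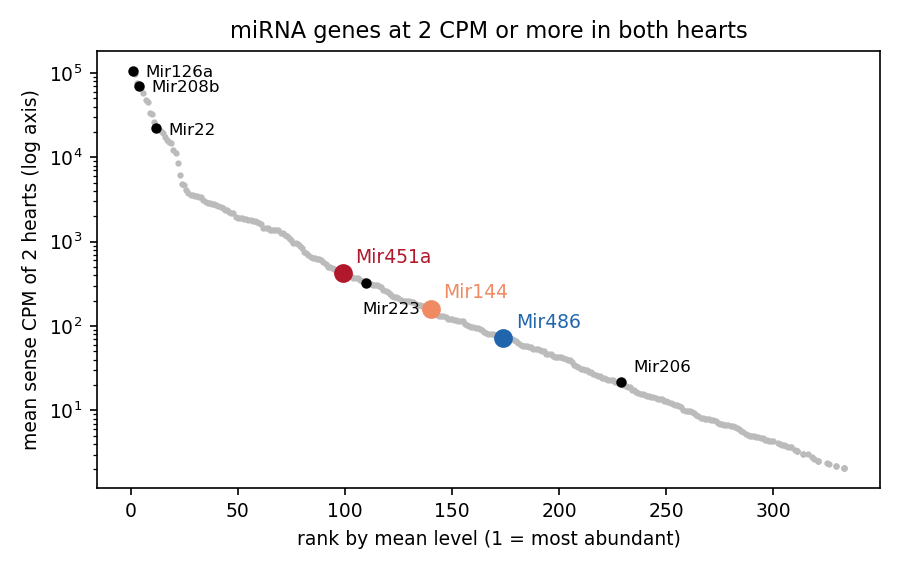
Mean sense CPM of the 2 hearts (log axis) against rank for the 327 genes at 2 CPM or more in both. Mir451a, Mir144 and Mir486 (large points) stand at ranks 99, 140 and 174, below the endothelial Mir126a and the myosin-hosted Mir208b and above Mir206.

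Mir451a outnumbered its neighbour Mir144 in sense counts 2.33-fold in replicate 1 (exact binomial 95% interval 2.08 to 2.61) and 3.12-fold in replicate 2 (2.80 to 3.47). The intervals do not overlap, so this ratio differed between the hearts by more than counting error, and its mean was 1.43 ± 0.299 on the log2 scale. Mir451a over Mir486 was 5.63-fold (4.80 to 6.63) in replicate 1 and 6.22-fold (5.41 to 7.18) in replicate 2, with overlapping intervals. For Mir144 over Mir486 the ratios were 2.42 (2.03 to 2.89) and 2.00 (1.70 to 2.35), which also overlap. These are ratios of counts, not of molecules, and they were not divided by length. The mature sequences shown for Mir451a and Mir144 are 20 to 23 nt long, and none is shown for Mir486.

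Between the littermates, Mir144 was higher in replicate 1 and the other two did not pass the test. The log2 ratio of replicate 1 over replicate 2, on log2(CPM + 1), was 0.51 for Mir144, a fold of 1.43 with an exact interval of 1.25 to 1.64. Its adjusted p was 4.95e-07 by an exact two-sided binomial test with Benjamini-Hochberg adjustment over 615 genes, which compares these 2 libraries at counting error and not any condition. Over the 5 alternatives that could change it the adjusted p lay between 2.80e-07 and 2.94e-06 by the same exact test.

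Mir451a had a log2 ratio of 0.10 (fold 1.07, interval 0.985 to 1.16; exact binomial test, unadjusted p = 0.0603, adjusted p = 0.299). Mir486 had 0.24 (fold 1.18, interval 0.967 to 1.44; exact binomial test, unadjusted p = 0.0776, adjusted p = 0.354). All 3 ratios had the same sign, and the members' median was 0.24, beside -0.04 over all genes tested. Of the 193 genes that averaged at least 50 CPM, 69 had that sign. Mir144 and Mir451a share a primary transcript, so the 3 signs are not independent. With 2 libraries, a p that misses the threshold does not show equal levels.

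The call for Mir144 has to be read against how often such calls occurred. Higher levels in replicate 1 were called for 1 of 3 members and for 31 of 615 genes (5.04%), and higher levels in replicate 2 for 0 of 3 members and 55 genes (8.94%). The share was larger among the more abundant genes: of 193 genes that averaged at least 50 CPM, a level all 3 members reached, 15.5% were called higher in replicate 1. Past 1.5-fold as well, 1 gene of the table (0.163%) was called higher in replicate 1, and it was not a member but Mir181a-2, with 462 and 348 counts.

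By size, the difference of Mir144 stood out more. Among those 193 genes the median absolute log2 ratio was 0.11, and 6 genes differed more than Mir144 in either direction. In the direction of replicate 1 the single gene further apart was again Mir181a-2, at 0.99. Mir486 was exceeded by 45 of the 193 genes in absolute log2 ratio and Mir451a by 111. In the direction of replicate 1 alone, 12 genes were further apart than Mir486 and 39 further than Mir451a.

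The other 5 genes further apart than Mir144 were higher in replicate 2, and they include miRNAs known from epithelium and from ciliated cells. Mir449a, of ciliated cells, had 83 sense counts in replicate 1 and 2589 in replicate 2, a log2 ratio of -4.34. Mir34c, also known from ciliated cells, was at -1.25, and Mir200c and Mir429 of the epithelial Mir200 family at -2.09 and -1.28. Mir200b, of the same family, had 108 sense counts in replicate 1 and 327 in replicate 2. The remaining genes of that family averaged under 50 CPM, Mir141 at a log2 ratio of -1.99 and Mir200a at -0.64, and of the family only Mir200a was not called by the exact binomial test. These genes were named after their values were seen. The hearts thus differed in miRNAs of other cell types as well, and the part of this in the difference of Mir144 was not tested.

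**Figure D3:**
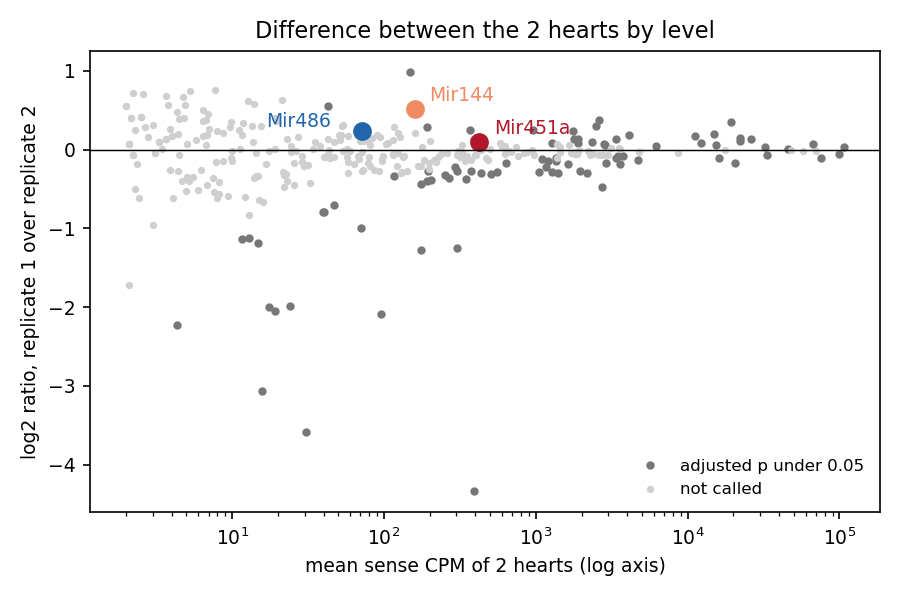
Log2 ratio of replicate 1 over replicate 2 against mean sense CPM (log axis) for genes that averaged at least 2 CPM, with dark points for adjusted p under 0.05 in the exact binomial test. Mir144 lies near the upper edge of its level range at 0.51, with Mir486 at 0.24 and Mir451a at 0.10.

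Mir144 and Mir451a are neighbours on one strand, and most other such neighbours kept their ratio more closely. Over 48 pairs of adjacent miRNA genes on the same strand, at most 10 kb apart and with at least 100 counts of each partner in each heart, the median absolute change of the log2 ratio between hearts was 0.08. For Mir451a over Mir144 the change was -0.42, replicate 1 minus replicate 2, and 3 pairs changed more. These were Mir181b-2 over Mir181a-2 (-1.07), Mir376c over Mir667 (-0.68) and Mir296 over Mir298 (-0.44), named after their values were seen. With 99 bases between them Mir144 and Mir451a were closer than most, since 10 pairs were closer and the median gap was 529 bases. Pairs share genes in longer clusters and are not independent, so no test was made. The pairs also differ in counts, and fewer counts allow larger changes by counting error alone. That error was not computed for the other pairs.

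**Figure D4:**
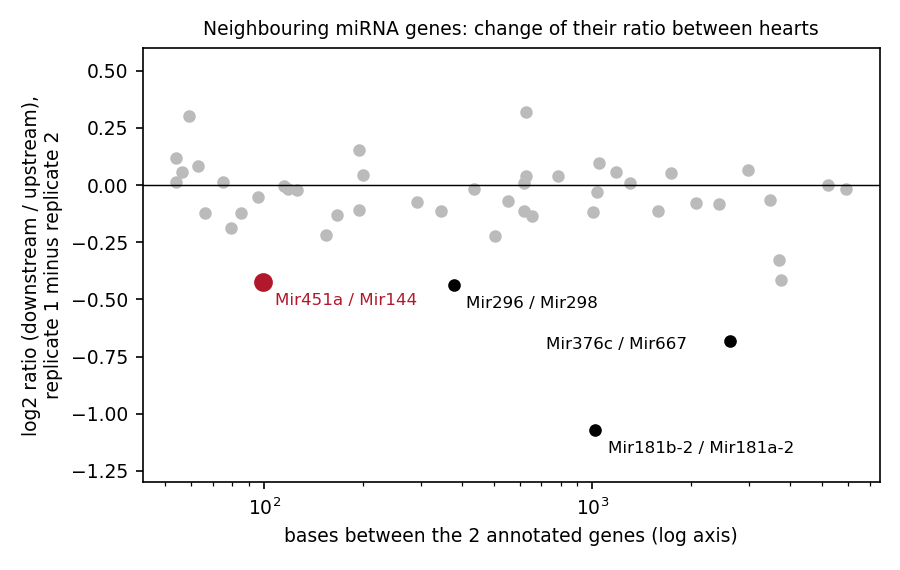
Change between hearts of the log2 ratio of neighbouring miRNA genes (replicate 1 minus replicate 2) against the bases between them (log axis), for 48 pairs. The pair of Mir451a and Mir144, 99 bases apart, lies at -0.42, and only the 3 labelled black points lie further from 0.

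The strand of the reads differed between the members that have a gene on each strand. Mir451a had 0 of 1019 reads on the opposite strand in replicate 1 and 0 of 1431 in replicate 2, which allows a share of up to 0.294% and 0.210%. RNA from the Mir451b strand was thus not detectable at this depth. The stretch aaccguuaccauuacu, bases 2 to 17 of miR-451a, occurs on both strands of the locus, so a read of those 16 nt alone could not be placed on 1 strand, while the full 22 nt could. Mir144, with no gene on its opposite strand, also had 0 of 438 and 0 of 459 reads there, which allows up to 0.685% and 0.654%.

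Mir486 did have reads on the strand of Mir3107. There were 5 of 186 reads in replicate 1, or 2.69% (0.878 to 6.16), and 14 of 244 in replicate 2, or 5.74% (3.17 to 9.44), with overlapping intervals and a mean of 4.21% ± 2.16 (SD, n = 2). Of 269 genes with 20 or more counts on both strands together in each heart, 89.6% had 0 reads on the opposite strand in both hearts and 4.46% had a larger share than Mir486. Of the 246 among them with no annotated miRNA gene opposite, 0 had a larger share, and the highest was 3.99%. Mir486 was below that value in replicate 1 (2.69%). Its exact interval with the hearts pooled, 2.68 to 6.81%, contains it, so counting error does not set Mir486 apart from that row.

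The rows with a second miRNA gene opposite are the fair comparison, and there were 23 of them at this count limit, each with a partner that has no row. Of these, 12 had a larger share than Mir486, up to 100% in Mir497b and in 7 rows named only by Gm numbers, while 6 had 0 opposite reads, Mir451a and Mir30e among them. Mir486 was next below Mir3074-1 (61.9%) and next above Mir129-2 (1.85%). No row thus lay between 4.21% and 61.9%. Reads that aligned to several places, 36.6% in replicate 1 and 37.1% in replicate 2, were given to no gene, and how many of them came from Mir486 or Mir3107 was not tested.

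**Figure D5:**
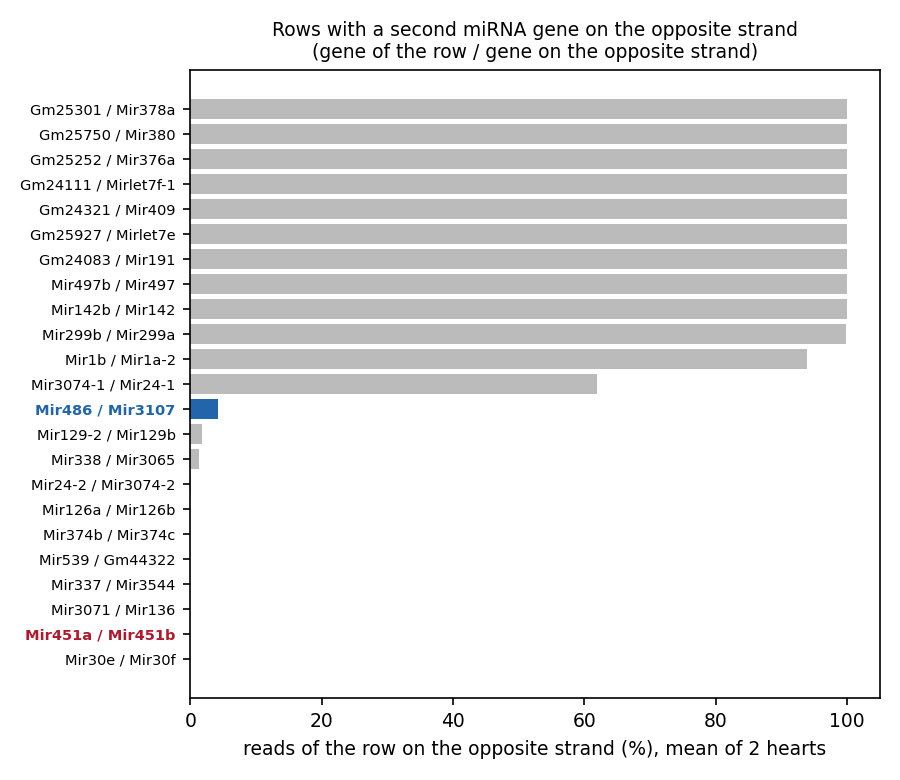
Percentage of a row's reads on the opposite strand (mean of the 2 hearts) for the 23 rows with a miRNA gene on each strand, named as gene of the row / gene opposite. Mir486 stands at 4.21%, between a set of 12 rows at 61.9% or more and the other rows at 1.85% or less, and Mir451a at 0.

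Markers of other cell types put these levels in scale. The erythroid genes held 0.0656% ± 0.00686 of sense counts, against 0.0517% ± 0.00266 for the white blood cell and platelet list, of which 5 of 7 genes had a row and 3 reached 2 CPM in both hearts. Mir451a exceeded Mir223, the miRNA of neutrophils and platelets, 1.29-fold, while Mir144 (160.1 CPM) and Mir486 (71.9 CPM) were below Mir223 (329 ± 8.35 CPM). Mir142, the pan-leukocyte miRNA, has no row of its own. Mir451a, with 1019 counts in replicate 1 and 1431 in replicate 2, was below the 1580 and 1835 reads on the strand of Mir142, which lie opposite the gene of the Mir142b row. The order of the 2 lists turned round with these reads: the erythroid genes summed to 1638 counts in replicate 1 and 2120 in replicate 2, against 1246 and 1739 for the white blood cell and platelet list without them and 2826 and 3574 with them.

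The members were small beside the tissue's own miRNAs. Mir451a was 252-fold below Mir126a, the endothelial miRNA, and 165-fold below Mir208b, hosted by the beta-myosin gene Myh7, and the counted reads of Mir486 were 974-fold below those of Mir208b. The striated muscle list, 9 of whose 10 genes had a row, held 8.96% ± 0.0841 of sense counts, with a median of 7.89 CPM. Its highest genes were Mir208b (69793 CPM), Mir208a (14939 CPM) and Mir499. Mir1a-1 was at 6.38 CPM, and Mir133a-2 and Mir133b at 2.08 CPM each. How many reads of these low genes aligned to several places was not tested, so the share and median of the striated muscle list may be too low. Mir486 is known from both red cells and muscle. At 71.9 ± 8.45 CPM it lay above Mir206 (21.4 ± 6.80 CPM), a skeletal muscle miRNA, and Mir133a-1 (7.89 ± 1.02 CPM) and under Mir499 (4790.5 ± 75.7 CPM), hosted by the myosin gene Myh7b. Mir133a-1, and likewise Mir16-1 and Mir181a-2, have near-identical copies elsewhere in the genome, so their counts are uncertain, as are those of Mir486 for the reason given with its level. Red cell and muscle reads of Mir486 cannot be told apart in whole hearts. Mir122, the hepatocyte miRNA, was at 50.6 ± 4.58 CPM, a level that Mir486 exceeded 1.42-fold.

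Other miRNAs studied in red cell formation lay both above and below the members in level, and they did not share a direction between the hearts. Of 21 such genes 17 had a row and 16 reached 2 CPM in both hearts, with a median of 329 CPM. Mir22 stood at 22157 ± 1172 CPM, and Mir16-1 and Mir15a, of one cluster on another chromosome, at 2825 ± 88.8 and 2371 ± 65.2 CPM. Mir451a was 6.66-fold below Mir16-1. Mir210, the hypoxia miRNA, had 879 ± 11.2 CPM, and Mir221 and Mir222, which repress the stem cell factor receptor Kit in erythroid precursors, had 121 ± 12.6 and 57.0 ± 0.327 CPM.

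Of the 17 tested genes of this list, 2 were called higher in replicate 1 by the exact binomial test, Mir22 (log2 ratio 0.11) and Mir16-1 (0.06). Another 4 were called higher in replicate 2, Mir107 (-0.13), Mir101b (-0.14), Mir32 (-0.34) and Mir96 (-1.12). Over all 615 genes tested, 31 (5.04%) were called higher in replicate 1 and 55 (8.94%) in replicate 2. Among the 193 genes that averaged at least 50 CPM these counts were 30 and 43. The list's median log2 ratio was -0.10, beside -0.04 over the 615 genes tested and 0.24 over the 3 erythroid genes. Of the white blood cell and platelet list 0 of 5 tested genes were called in either direction, with a median of 0.05. Of these, Mir142b (0 and 1 counts) and Mir146b (0 and 3) had too few counts to be called. Reads on the strand of Mir142, 1580 in replicate 1 and 1835 in replicate 2, were not part of that test. The libraries held 2323450 and 3487183 sense counts, so the share of these reads was larger in replicate 1. No call is reported for them. Mir191, Mir24-1 and Mir376a have no row, but reads lay on their strand in rows of genes opposite them: 5944 and 8904 for Mir191, 137 and 131 for Mir24-1, and 1780 and 3380 for Mir376a.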

How the data were processed

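Small RNA was sequenced from total RNA of 2 hearts, with inserts under 30 nt per the labels. The authors deposited raw counts, whole read numbers for each miRNA gene; reads were placed on mm10 with annotation M4, per the deposited descriptions of the files. The aligner, counter and settings are not given in the sources used here. Each table has 4 summary rows, kept out of library sizes and tests: 11.5% of reads in replicate 1 and 10.5% in replicate 2 were unmapped, 36.6% and 37.1% aligned to several places, 5.93% and 5.62% on no feature and 0 ambiguous. The first count column was the sum of the other two in every row. Of these, the one with the larger total was read as the sense strand (2323450 and 3487183 counts) and the other as the opposite strand (6.62% and 6.67% of counts on genes). Where no read was seen, up to 3 counts were allowed for, or 1.29 and 0.860 CPM.

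Symbols and positions came from GENCODE M21 (1894 of 1973 identifiers matched; the other 79 had 0 counts), sequences from RefSeq, and hairpins were folded with RNAfold 2.7.2. The exact test used TMM-scaled library sizes (edgeR 4.0.16) over all genes with at least 1 count. It was tested on data simulated with counting error alone. Such data cannot show how the test behaves with variation between animals or library preparations. edgeR's quasi-likelihood test has no residual degrees of freedom for 1 library against 1 and was not used. DESeq2 1.42.0 size factors were an alternative. The members and lists were chosen with earlier results of these data known. Genes were named if they were members, annotated opposite or within 10 kb, ranked next to a member, alike in seed, or on a list; others are named after their values were seen. The comparison of neighbouring pairs, its 2 alternatives and the TMM-scaled log2 ratio were added after seeing the data. Both pups are from 1 litter, with 1 library each, so animal and library preparation cannot be told apart.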

Additional observations from a re-analysis of the deposited data

How the results depend on the processing

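Of 97 alternatives over all results 30 could not change the outcome: with 2 hearts a single heart or the pooled counts always lie within 1 SD of the mean, and the exact test on counts uses neither the pseudocount nor the scaling of the log2 ratio. Of the other 67, 61 stayed on the same side of the threshold, within 1 SD of the mean over hearts or, for counts of genes, within 1.5 times. Some of these had little room to change. Mir451a over Mir144 is the same with counts of both strands, since neither had opposite reads. The mean of Mir451a was 424.466 CPM as reported, 424.553 with TMM scaling and 424.512 with DESeq2 size factors. The levels of the members moved by more than 1 SD in the other 6. With all reads in the denominator Mir451a had 197, Mir144 74.2 and Mir486 33.4 counts per 1000000 reads. Without Mir126a, the most abundant gene, in the denominator Mir451a had 475 and Mir486 80.5 CPM, and with counts of both strands Mir451a had 396 CPM. These follow from the denominators. The call of Mir144 held under total-count scaling, DESeq2 size factors, a minimum of 10 counts, counts of both strands and thinning of the deeper library (20 draws), and Mir451a (adjusted p 0.178 to 0.433, exact binomial test) and Mir486 (0.213 to 0.517) stayed uncalled. Counts of called genes stayed within 1.5 times, and so did the neighbour pairs that changed more than Mir451a over Mir144: 3 of 56 at 50 counts and 2 of 38 at 200. Leaving out a heart leaves no test between pups. No paired analysis was possible because the series has 1 group. Depth limits the share of Mir486 on the opposite strand, which rests on 19 reads.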
